A study of Mus musculus with 32 samples.

Results

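The older LINE subfamilies of the mouse are the rows of the repeat table whose class is LINE, apart from the young L1 subfamilies whose names begin with L1Md_. They were chosen by name and class alone, and they came to 152 of the 1153 repeat subfamilies measured beside 55335 genes. Of the 158 rows with the class LINE, 6 were young L1Md_ rows and were left out, as was 1 row whose class was marked as doubtful (UCON13). The L1 family held 127 of the 152, CR1 15, L2 4 and RTE-X 4, and Dong-R4 (Mam_R4) and RTE-BovB (X3_LINE) held 1 each.

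LINEs are retrotransposons that copy themselves through an RNA, using a reverse transcriptase that they encode. In the mouse, only some L1 elements still move, and they belong to the young L1Md_ subfamilies. The older copies are mostly truncated and mutated, many lie inside introns and untranslated regions of genes, and RNA that contains them can therefore come from a host gene as well as from the element itself. The names give a rough order of age within L1: the subfamilies named after Mus or the murine rodents (L1_Mus, L1_Mur, L1VL, L1_Mm) and the rodent Lx group spread late, the L1MA to L1ME groups are shared by many mammals and run from younger to older, and HAL1 is an L1 relative that lost most of its coding capacity. L2 and the CR1 family, which includes L3, are older still and have long been silent in the mouse. Early embryos transcribe many repeats as their own genome is switched on at the 2-cell stage, while the oocyte lives on RNA it has stored.

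RNA sequencing covered 16 groups of 2 libraries each, 32 libraries in all. The first pair was growing oocytes of postnatal day 14 ovaries carrying an H3.3K4M transgene, a histone H3.3 whose lysine at the site of H3K4 methylation is methionine, and their H3.3WT transgenic counterparts. Wild-type MII oocytes, which are ovulated and ready for fertilisation, came from 12-month and from 8-week females. Wild-type 2-cell embryos of 12-month females were untreated. Wild-type 2-cell and 4-cell embryos of 6-8-week females were cultured with aphidicolin, which blocks DNA polymerases, with cycloheximide, which blocks protein synthesis, with MG132, which blocks the proteasome, or with the vehicle DMSO. The last 3 groups were AB2.2 mouse embryonic stem cells (ESCs), a wild-type line, with cycloheximide, MG132 or DMSO. Not given in the sources used here are the driver of the transgenes, drug doses and times, and how many oocytes or embryos a library pooled. Oocyte and embryo libraries were low-input full-length cDNA libraries and ESC libraries were made from poly(A)-selected RNA, so library kind and cell system cannot be told apart between ESCs and the rest. In the 12-month 2-cell embryos, age and the absence of a vehicle cannot be told apart.

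Libraries held 14313718 to 34713159 counts over genes and repeats, with 139 to 150 of the 152 subfamilies detected and 112 to 146 at 10 or more counts. No files were identical, and replicate pairs differed by 3.03 (cycloheximide ESCs) to 277 (aphidicolin 4-cell embryos) times the variance that counting alone gives. Marker sums set oocytes and ESCs apart. Oocyte markers were at 11121 to 25598 CPM in oocytes, 4249 to 10544 CPM in 2-cell embryos and at most 9.65 CPM in ESCs. Stem cell markers were at 3061 to 3545 CPM in ESCs and at most 124 CPM elsewhere. The 2-cell markers did not always follow the stage labels. They were at 35.1 to 169 CPM in cycloheximide and MG132 2-cell embryos and 25120 and 15238 CPM in DMSO 2-cell embryos. MG132 4-cell embryos had 13859 and 21618 CPM. CPM here is a row's count divided by all counts of its library and multiplied by 1000000. A row sums every genomic copy of a subfamily and is not divided by copy number or length, so a higher CPM in one subfamily than in another is not a higher level per copy. In these bulk samples, fewer cells of a type and less RNA per cell cannot be told apart. Nothing says that the 2 libraries of a group came from separate animals or cultures, so the p-values measure the spread between libraries, which may be technical.

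Older LINE subfamilies took the smallest mean share of counts in H3.3K4M growing oocytes and the largest in DMSO 2-cell embryos. Their share of all counts was 0.243% and 0.286% in H3.3K4M oocytes, against 0.363% and 0.311% in H3.3WT oocytes. It was 0.653% and 0.601% in 12-month MII oocytes, against 0.718% and 0.726% in 8-week MII oocytes. Both pairs thus lay apart without overlap, with the H3.3K4M and the 12-month libraries lower. Among 2-cell embryos the share was 1.09% and 1.29% with 12-month mothers, 1.04% and 1.49% with aphidicolin, 0.594% and 0.478% with cycloheximide, 0.794% and 0.807% with MG132, and 1.54% and 1.77% with DMSO. All 8 other 2-cell libraries lay below both DMSO libraries, and those with cycloheximide lay below all 4 MII libraries. At the 4-cell stage the cycloheximide and MG132 libraries instead lay above DMSO. The share was 0.628% and 0.777% with aphidicolin, 1.29% and 0.955% with cycloheximide, 1.21% and 1.10% with MG132, and 0.833% and 0.751% with DMSO. ESCs had 0.362% and 0.429% with cycloheximide, 0.437% and 0.409% with MG132, and 0.300% and 0.364% with DMSO.

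**Figure D1:**
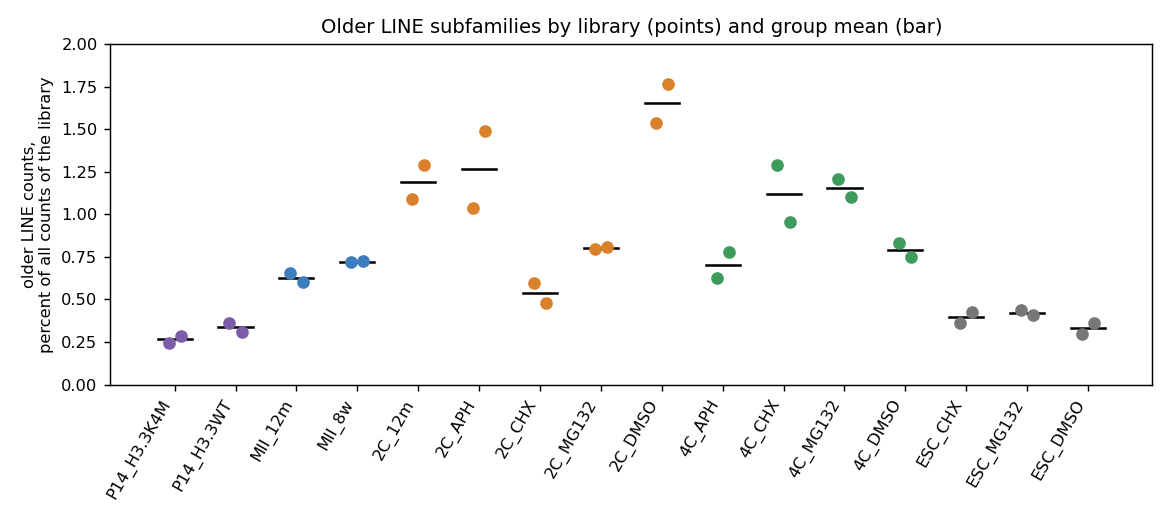
Share of all counts (%) held by the 152 older LINE subfamilies in each of the 32 libraries (points) with the mean of each group (bar). The DMSO 2-cell libraries are highest at 1.54% and 1.77%, the cycloheximide 2-cell libraries sit at 0.594% and 0.478%, and the cycloheximide and MG132 4-cell libraries lie above both DMSO 4-cell libraries.

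The group means ranged over 0.265 ± 0.0301% in H3.3K4M oocytes, 0.337 ± 0.0370% in H3.3WT oocytes and 1.65 ± 0.162% in DMSO 2-cell embryos (SD, n = 2 each). Set in order, several neighbours did not differ beyond their spread. The mean was 0.395 ± 0.0470% in cycloheximide ESCs, 0.423 ± 0.0202% in MG132 ESCs and 0.332 ± 0.0457% in DMSO ESCs, and the range of the H3.3WT oocytes overlapped those of the cycloheximide and DMSO ESCs, while both MG132 ESC libraries lay above both DMSO ESC libraries. Aphidicolin (1.26 ± 0.318%) and 12-month (1.19 ± 0.141%) 2-cell embryos and cycloheximide 4-cell embryos (1.12 ± 0.236%) also overlapped (SD, n = 2 each). These sums carry no test.

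How much of the repeat RNA was older LINE differed more widely. The share of all repeat counts was 0.735% to 1.21% in growing oocytes, against 10.5% to 13.6% in MII oocytes and 10.2% to 11.3% in ESCs. In growing oocytes all repeats together took 33.1% (H3.3K4M) and 31.0% (H3.3WT) of all counts on average. The older LINE share of repeat counts was 3.76% to 8.55% in 2-cell and 2.86% to 5.48% in 4-cell embryos. Older LINE counts exceeded young L1Md_ counts in every library. The ratio was 21.4 to 36.5 in MII oocytes, 11.4 to 14.6 in growing oocytes, 7.50 to 25.1 in 2-cell embryos, 6.78 to 11.3 in 4-cell embryos and only 1.18 to 1.97 in ESCs, where the young subfamilies took 0.207% to 0.348% of all counts. Among 2-cell embryos it was 17.1 and 14.4 with cycloheximide and 25.1 and 23.8 with MG132, against 7.50 and 8.33 with DMSO.

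The L1 family held most older LINE counts everywhere, 84.7% to 86.6% in growing oocytes, 92.4% to 94.4% in MII oocytes and 80.7% to 83.9% in ESCs. What changed was which L1 groups made it up. The Lx group with L1_Rod (22 subfamilies) held 55.7% to 58.4% of older LINE counts in MII oocytes, 45.2% to 57.4% in 2-cell embryos and 39.9% to 45.3% in 4-cell embryos, against 33.1% to 37.4% in growing oocytes and 35.1% to 36.9% in ESCs. The 11 subfamilies named after Mus or the murine rodents were the reverse, with 26.4% to 32.0% in growing oocytes, 9.61% to 12.8% in MII oocytes and 20.3% to 22.2% in ESCs. L2, with only 4 subfamilies, held 14.1% to 17.5% in ESCs and 11.7% to 13.7% in growing oocytes, but 4.41% to 5.72% in MII oocytes, and as little as 4.00% in a 4-cell library. CR1 stayed between 0.866% and 2.37% in all 32 libraries.

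**Figure D2:**
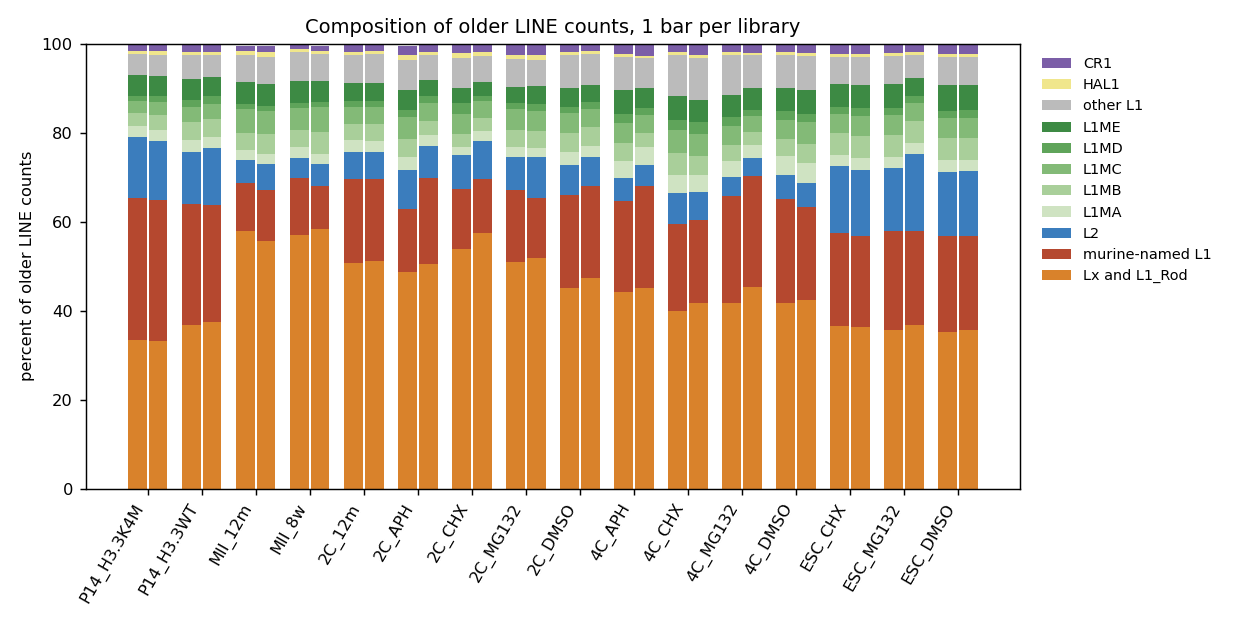
Make-up of the older LINE counts in each library (stacked bars, % of older LINE counts) by L1 group and by family. Lx with L1_Rod is above 55% in the 4 MII libraries and below 38% in growing oocytes and ESCs, where the L2 band is widest.

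The counts were concentrated in a few subfamilies. The 10 leading ones held 36.8% (cycloheximide 4-cell embryos) to 56.4% (H3.3K4M oocytes) of older LINE counts, and 53 (H3.3K4M oocytes) to 101 (DMSO 2-cell embryos) subfamilies averaged 10 CPM or more. L1_Mus2 led in growing oocytes, with 15.3% of older LINE counts in H3.3K4M and 11.1% in H3.3WT oocytes, and L2a came next. Lx7 led in MII oocytes and in all 2-cell groups, and reached 13.4% of older LINE counts in 12-month MII oocytes. Lx8 led in the 4-cell groups other than DMSO, where Lx3B led, and in the drug-treated ESCs, whereas L1_Mus1 led in DMSO ESCs. For 68 of the 152 subfamilies the group with the highest mean CPM was the DMSO 2-cell embryo, for 34 the cycloheximide and for 13 the MG132 4-cell embryo. For none was it either growing oocyte group or the DMSO ESCs.

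Individual subfamilies had profiles of their own. L1_Mus3 was highest in DMSO 2-cell embryos, at 806 and 879 CPM, and stood at 50.1 to 97.9 CPM in all 8 oocyte libraries. Cycloheximide 2-cell embryos had 110 and 130 CPM and MG132 2-cell embryos 169 and 130 CPM, both well below DMSO, while 4-cell embryos had 225 to 612 CPM. In ESCs L1_Mus3 averaged 174 CPM with cycloheximide, 203 CPM with MG132 and 152 CPM with DMSO. L1_Mus2, its close relative by name, was instead high in growing oocytes (371 and 441 CPM in H3.3K4M, 410 and 340 CPM in H3.3WT) and low in MII oocytes (44.4 and 39.6 CPM at 12 months, 114 and 61.7 CPM at 8 weeks). It was at 439 and 564 CPM in DMSO 2-cell embryos, so its level in growing oocytes overlapped that of the 2-cell embryo. MusHAL1, a mouse element of the HAL1 type by its name, was at 4.30 to 10.7 CPM in all oocyte libraries and at 201 and 147 CPM in MG132 4-cell embryos, against 51.3 and 37.9 CPM in DMSO 4-cell embryos. L1ME3F, of the oldest L1 group, was under 2 CPM in every oocyte library and at 59.1 and 96.6 CPM in MG132 4-cell embryos, against 28.1 and 26.0 CPM in DMSO 4-cell embryos. Both elements thus peaked in the same group, which was not the group that led for most subfamilies.

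Lx3B was a subfamily of the 4-cell stage. It was at 371 to 431 CPM in aphidicolin, MG132 and DMSO 4-cell embryos but at 176 and 204 CPM with cycloheximide, which did not overlap, and at 38.0 to 229 CPM in all 2-cell libraries. L2a, an ancient element, was at 228 to 291 CPM in growing oocytes and 166 to 272 CPM in ESCs, and highest in aphidicolin (421 and 490 CPM) and DMSO (420 and 455 CPM) 2-cell embryos. Plat_L3, a CR1 element, was higher at the 2-cell stage than later: it was at 31.5 and 39.8 CPM in DMSO 2-cell embryos, 4.37 to 21.1 CPM in oocytes, 1.58 to 3.69 CPM in 4-cell embryos and 1.11 to 1.80 CPM in ESCs. Its cycloheximide 2-cell libraries disagreed, at 25.5 and 2.41 CPM, and so did those of L4_C_Mam (RTE-X), at 8.66 and 1.19 CPM. The smallest families were near the limit of counting: Mam_R4 was at most 1.38 CPM and X3_LINE at most 2.96 CPM in any library.

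**Figure D3:**
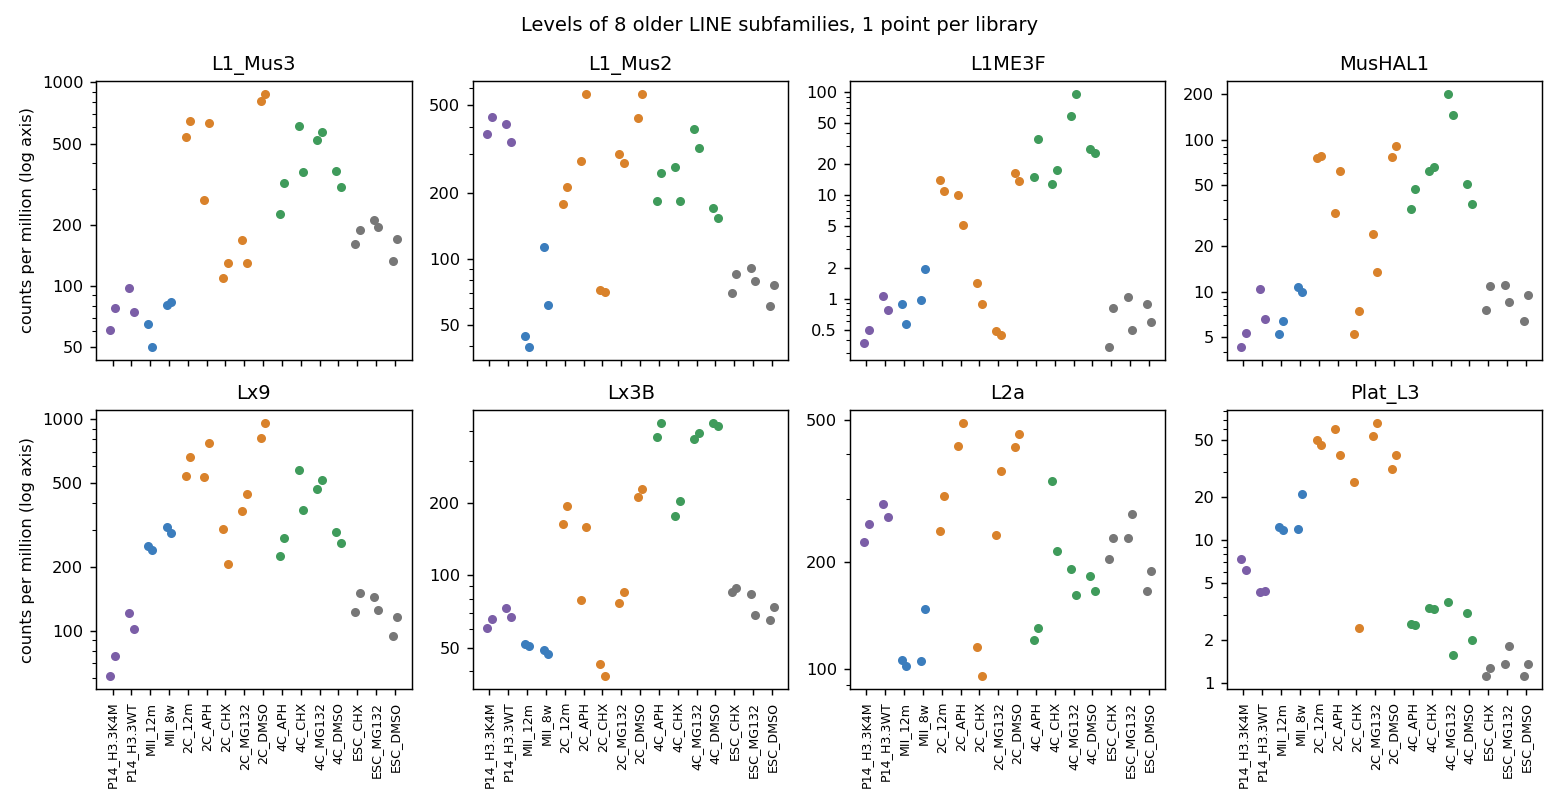
Level (CPM, log axis) of 8 older LINE subfamilies in each of the 32 libraries, grouped by sample group. L1_Mus3, MusHAL1 and L1ME3F are low in oocytes and in cycloheximide 2-cell embryos, L1_Mus2 is high in growing oocytes, Lx3B is highest in 4-cell embryos and Plat_L3 in 2-cell embryos.

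Groups were compared with edgeR's quasi-likelihood test, fitted on all genes and repeats, and a subfamily was called at an adjusted p under 0.05 over all repeat subfamilies tested. Counts of calls cover the 124 to 146 older LINE subfamilies that passed the filter on low counts in a comparison. Of the 152, 116 were tested in all 14 comparisons, 5 in none (L1M2a1, L1M2b, X1_LINE, X5A_LINE and X7D_LINE), 123 were called in at least 1, and 24 were tested and never called. Levels in the comparisons below are normalised CPM, that is CPM on the TMM-scaled library sizes of the fit, so they differ somewhat from the plain CPM above and between fits that share a group.

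**Figure D4:**
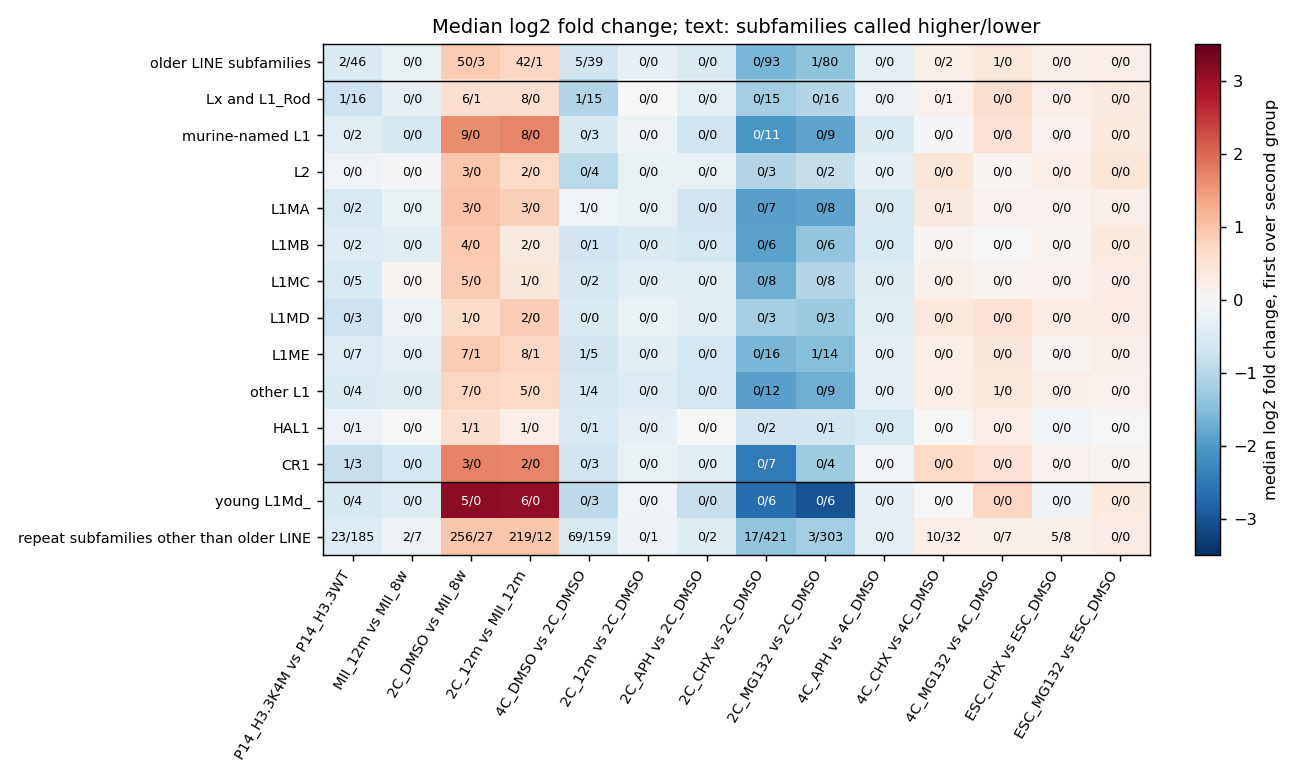
Median log2 fold change (colour, first over second group named) of the subfamilies tested, by L1 group or family (rows) and comparison (columns), with the number called higher and lower written in each cell; the last 2 rows give the young L1Md_ and all other repeats. The columns of cycloheximide and MG132 against DMSO 2-cell embryos are negative in every row shown, and those of 2-cell embryos against MII oocytes are positive. The smallest groups (L1P, RTE-X, Dong-R4 and RTE-BovB) are not plotted and do not all follow this: the RTE-X median in 12-month 2-cell embryos against MII oocytes is −0.14, and 0.06 with gene-only library sizes. With DESeq2 size factors the negative median of L1MA in 4-cell against 2-cell embryos turns positive (0.08), and that of Lx with L1_Rod in 12-month against DMSO 2-cell embryos, 0.02, turns to −0.03.

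In H3.3K4M growing oocytes 46 of 124 older LINE subfamilies (37.1%) were lower than in H3.3WT oocytes and 2 were higher. Among all repeat subfamilies tested, 29.2% were lower and 3.16% higher. The median log2 fold change was −0.49 for the older LINE subfamilies, −0.45 for all repeats and 0.00 for all genes. The Lx group with L1_Rod had 16 of 22 lower and 1 higher, with a median of −0.73, while L2 had none of 4 called and a median of −0.13. CR1 had 3 of 7 lower and 1 higher, L1MC 5 of 11 lower, L1ME 7 of 22 lower and the murine-named group 2 of 11 lower.

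L1MB5 fell most, with 7.75 and 8.43 normalised CPM in H3.3K4M against 29.5 and 29.3 in H3.3WT oocytes (log2 fold change −1.86 ± 0.18 SE, adjusted p = 3.24e-05). L1MB2 had 3.59 and 4.65 normalised CPM in H3.3K4M oocytes and 11.6 in both H3.3WT libraries (−1.48 ± 0.21, adjusted p = 0.000504). Lx2B2 had 29.5 and 31.6 against 90.1 and 79.3 (−1.47 ± 0.16, adjusted p = 0.000115). In each of these both H3.3K4M libraries lay well below both H3.3WT libraries, and the call held with any 1 library left out. Of the index subfamilies described in every comparison, L1_Mur1 (−1.18), L3b (−1.07), L1MC1 (−1.01), L1MD (−0.95), L1_Rod (−0.93), Lx2 (−0.91) and L4_C_Mam (−1.52) fell likewise. Lx2A1 moved the other way, with 42.0 and 32.9 normalised CPM in H3.3K4M against 16.2 and 19.0 in H3.3WT oocytes (1.09 ± 0.18, adjusted p = 0.00136). The other subfamily that was higher, Plat_L3, had 8.20 and 5.91 against 4.08 and 4.47 (0.71 ± 0.23, adjusted p = 0.0335), was called in 1 of 4 runs that left out a library, and is named after its values were seen.

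L1_Mus2 and L2a, which ranked highest in growing oocytes, were not called. Lx8, also among the leading subfamilies, was called lower and averaged 118 plain CPM in H3.3K4M against 173 in H3.3WT oocytes. L1_Mus2 had 412 and 420 normalised CPM in H3.3K4M against 384 and 344 in H3.3WT oocytes (0.19, adjusted p = 0.39), and L2a had 253 and 242 against 272 and 270 (−0.13). The number of older LINE subfamilies called was 28 without H3.3K4M replicate 1 and 20 without H3.3WT replicate 1, so its size depends on single libraries. Summed markers of the cumulus and granulosa cells were at 1.62 and 1.30 CPM in H3.3K4M against 8.41 and 6.80 CPM in H3.3WT oocytes, with Amh and Has2 at 0 in all 4 libraries. Cyp19a1 held the largest part of the H3.3WT sums, at 0.257 and 0.559 against 4.37 and 3.48 CPM. Kitl, Fshr and Ptgs2 were lower in H3.3K4M as well, while Gja1 (0.478 and 0.265 against 0.443 and 0.580 CPM) and Foxl2 overlapped. The 2-cell markers, mostly Tcstv3, summed to 38.7 and 51.1 CPM in H3.3K4M against 160 and 121 CPM in H3.3WT oocytes. Their part in the result was not tested. A list of 37 genes known to act on LINE elements or their RNA is called restriction genes below for short. The name does not mean that each of them restricts LINEs. Of these, 36 were tested and 4 were higher and 2 lower in H3.3K4M oocytes, where 8.64% of all genes were higher and 13.7% lower. Tex19.2 (36.0 against 5.99 normalised CPM, 2.59 ± 0.35) and its paralogue Tex19.1 (125 against 52.6, 1.25), which act on retrotransposons in the mouse germ line, and the piRNA factor Mael (72.8 against 37.6, 0.95) were higher. Dnmt3l, the cofactor of de novo DNA methylation in oocytes, was lower (22.1 against 43.1, −0.97).

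No older LINE subfamily was called between 12-month and 8-week MII oocytes, of 127 tested. At an unadjusted p under 0.05 there were 17, beside 133 of all 830 repeat subfamilies tested. DESeq2's Wald test called 9 older LINE subfamilies, all lower at 12 months. The share of all repeat subfamilies that DESeq2 called is not given here or in the comparisons below. Its counts therefore have no background beside them. Of all repeat subfamilies edgeR called 0.241% higher and 0.843% lower. The median was −0.23 for the older LINE subfamilies and −0.22 for all repeats. Lx8 had 356 and 338 normalised CPM at 12 months against 637 and 632 at 8 weeks (−0.87 ± 0.24, adjusted p = 0.157), and L1_Mus2 42.3 and 38.4 against 109 and 69.5 (−1.15 ± 0.31, adjusted p = 0.157). In both the libraries did not overlap. Lx7, the leading subfamily, had 863 and 753 at 12 months and 748 and 768 at 8 weeks, with overlap, and L1_Mus1 had 172 and 210 against 127 and 103 (0.73, adjusted p = 0.248). Without 8-week replicate 1, 10 older LINE subfamilies were called, and without 8-week replicate 2, 5 were called. Of 32 restriction genes tested, edgeR called none, beside 0.272% of all genes called higher and 0.530% lower. An unadjusted p under 0.05 was found for 5 of the 32, beside 2305 of all 15083 genes tested. DESeq2 was run for the repeats and not read out for these genes.

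In 2-cell embryos of 12-month mothers, again no older LINE subfamily was called against DMSO 2-cell embryos (0 of 143, 1 by DESeq2). At an unadjusted p under 0.05 there were 10, beside 75 of all 1016 repeat subfamilies tested. The median was −0.29 for older LINE subfamilies and −0.22 for all repeats, of which 0% were higher and 0.0984% lower. L1_Mus2 had 219 and 232 normalised CPM with 12-month mothers against 398 and 532 with DMSO (−1.04 ± 0.33, adjusted p = 0.46). None of 36 restriction genes was called by edgeR, with 0.469% of all genes called higher and 0.746% lower. An unadjusted p under 0.05 was found for 6 of the 36, beside 3165 of all 22391 genes tested.

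From the MII oocyte to the 2-cell embryo many older LINE subfamilies were higher. In DMSO 2-cell embryos 50 of 143 (35.0%) were higher than in 8-week MII oocytes and 3 were lower, beside 30.4% and 2.98% of all repeats. The medians were 0.88 for the older LINE subfamilies, 0.95 for all repeats and 0.33 for all genes. The murine-named group had 9 of 11 higher and a median of 1.62, against 6 of 22 higher and 1 lower in the Lx group (0.59). L2 had 3 of 4 higher (0.96) and CR1 3 of 12 (1.75), and the mammalian L1MA (3 of 9), L1MB (4 of 7) and L1MC (5 of 11) groups also held calls. The 6 young L1Md_ subfamilies had a median of 3.13 with 5 higher.

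L1VL1 had 37.9 and 29.2 normalised CPM in DMSO 2-cell embryos against 4.05 and 1.89 in 8-week MII oocytes (3.49 ± 0.51, adjusted p = 0.00107). L1_Mus3 had 576 and 656 against 97.5 and 114 (2.54 ± 0.26, adjusted p = 0.000119), and L1ME3F 11.7 and 10.4 against 1.18 and 2.62 (2.54 ± 0.49, adjusted p = 0.00478). The groups did not overlap in any of the 3, and each call held with any library left out. MusHAL1 (2.21 ± 0.31), L1_Mur1 (2.24), L1_Mus2 (1.73), L1_Mm (1.62), L1MD (1.39), L1_Mus4 (1.34), Lx2 (1.14) and L1_Mus1 (1.02) also rose. Of the ancient elements, L2a had 301 and 339 against 127 and 202 (0.96 ± 0.27, adjusted p = 0.0242) and L3 99.5 and 97.9 against 45.3 and 60.1 (0.90, adjusted p = 0.0237). L2c, at 138 and 156 against 109 and 104, was not called (0.46, adjusted p = 0.149), nor was Lx8, at 677 and 729 against 798 and 766 (−0.15). L1ME5 and X3_LINE had 0 counts in both 8-week MII libraries and 71 and 97 counts over the 2 DMSO 2-cell libraries, which makes them at least 23.6-fold and 32.3-fold higher on a bound of 3 counts over the group (both named after their values were seen). With 1 library left out the lowest bounds were 11.7-fold for L1ME5 and 15.96-fold for X3_LINE, both without 8-week MII replicate 2, and L1ME5 lost its call whichever library was left out.

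The 3 subfamilies that were lower in 2-cell embryos all belonged to the L1 family. Lx4A had 293 and 388 normalised CPM in DMSO 2-cell embryos against 672 and 840 in 8-week MII oocytes (−1.15 ± 0.25, adjusted p = 0.00685). HAL1b had 2.86 and 8.14 against 16.4 and 22.4 (−1.82 ± 0.55, adjusted p = 0.0322), and L1ME4a 38.2 and 56.8 against 78.4 and 88.3 (−0.81 ± 0.28, adjusted p = 0.0496). The call of L1ME4a was lost whichever library was left out. The number called was 32 without MII 8-week replicate 1.

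With 12-month mothers the same step gave 42 of 143 higher in 2-cell embryos than in MII oocytes and 1 lower, beside 25.9% and 1.29% of all repeats. The medians were 0.73 for older LINE subfamilies, 0.90 for all repeats and 0.19 for all genes, with 8 of 11 murine-named (1.72), 8 of 22 Lx (0.58), 2 of 12 CR1 (1.71) and 2 of 4 L2 (0.70) subfamilies higher. L1VL1 again led, with 27.7 and 26.0 normalised CPM in 2-cell embryos against 2.14 and 1.07 in MII oocytes (4.06 ± 0.53, adjusted p = 0.00052). MusHAL1 had 74.6 and 68.0 against 6.21 and 7.71 (3.36 ± 0.32, adjusted p = 8.04e-05), and L1_Mus3 530 and 559 against 76.2 and 60.7 (2.99 ± 0.26, adjusted p = 4.41e-05). L1_Mus1 differed little here, at 218 and 256 against 213 and 263 (−0.01, adjusted p = 0.99). The lone lower subfamily was L1MEj, with 7.01 and 7.31 against 21.5 and 26.4 (−1.74 ± 0.41, adjusted p = 0.0122), a call kept in 1 of 4 runs that left out a library. The count was 24 without 2-cell replicate 1, 14 without 2-cell replicate 2, 16 without MII replicate 1 and 10 without MII replicate 2. The change from MII oocyte to 2-cell embryo was also compared between 12-month and young mothers. By edgeR it was called as different for 0 of 143 older LINE subfamilies and 0% of all repeats, and DESeq2 called 0. At an unadjusted p under 0.05 there were 11 older LINE subfamilies, beside 93 of all 1006 repeat subfamilies tested. The median difference was −0.01.

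Cumulus cell markers, for the cells that surround the ovulated oocyte, summed to 56.2 and 40.3 CPM in DMSO 2-cell embryos against 95.7 and 77.9 CPM in 8-week MII oocytes. With 12-month females they summed to 30.9 and 35.3 CPM in 2-cell embryos against 112 and 105 CPM in MII oocytes. The members did not move together. Cyp19a1 made up most of each MII sum. It was at 3.89 and 8.34 CPM in DMSO 2-cell embryos against 55.8 and 74.955 CPM in 8-week MII oocytes. With 12-month females it was at 11.7 and 13.6 CPM against 78.4 and 86.2 CPM. Gja1 made up most of the DMSO 2-cell sums, at 41.6 and 27.8 CPM, against 32.7 and 0.106 CPM in 8-week MII oocytes. Kitl was higher in 12-month 2-cell embryos (11.4 and 15.9 against 5.57 and 6.85 CPM). The part of these markers in these results was not tested. Of 35 restriction genes tested, 6 were higher and 5 lower in DMSO 2-cell embryos than in 8-week MII oocytes, where 10.1% of all genes were higher and as many lower. The lower ones included Mphosph8, a HUSH complex subunit that silences L1 (49.8 against 1263 normalised CPM, −4.67 ± 0.42), the maintenance methyltransferase Dnmt1 (27.6 against 210, −2.92) and Trim28, a corepressor of repeats (14.8 against 81.7, −2.46). Mael (2.24) and Morc2a (2.37) were among the higher ones. With 12-month mothers 2 of the 35 were higher and 4 lower, beside 5.80% and 6.76% of all genes, and Mphosph8 (79.0 against 744 normalised CPM, −3.24) and Dnmt1 (−2.62) were again lower.

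In DMSO 4-cell embryos 39 of 143 older LINE subfamilies (27.3%) were lower than in DMSO 2-cell embryos and 5 were higher, beside 19.7% and 7.36% of all repeats. The median was −0.64 for older LINE subfamilies, −0.56 for all repeats and −0.57 for all genes. DESeq2 size factors, which moved the median of all genes by 0.22, gave 22 lower and 6 higher. The Lx group had 15 of 22 lower and 1 higher (−1.02) and L2 had 4 of 4 lower (−0.95), while L1MA had 1 of 9 higher and none lower. Of the other groups 5 of 27 L1ME, 3 of 11 murine-named and 3 of 12 CR1 subfamilies were lower.

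The named subfamilies that fell most belonged to CR1 and RTE-X. Plat_L3 had 3.03 and 1.90 normalised CPM in DMSO 4-cell embryos against 22.5 and 29.7 in DMSO 2-cell embryos (−3.40 ± 0.45, adjusted p = 0.00056). X8_LINE, also CR1, had 0.781 and 0.427 against 6.39 and 13.9 (−4.05 ± 0.75, adjusted p = 0.00339), and L4_C_Mam 2.31 and 1.84 against 13.6 and 25.1 (−3.22 ± 0.47, adjusted p = 0.000931). These 3 calls held with any library left out, as did those of Lx9 (290 and 246 against 582 and 715, −1.27 ± 0.23) and L2c (67.3 and 65.0 against 138 and 156, −1.15 ± 0.24). L2a (180 and 158 against 301 and 339, −0.92) was called in 1 of the 4 runs that left out a library. L3 had 95.5 and 102 against 99.5 and 97.9 and so differed little.

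Lx3B rose, with 426 and 401 normalised CPM in 4-cell embryos against 151 and 171 in 2-cell embryos (1.36 ± 0.23, adjusted p = 0.00189). The other 4 higher subfamilies depended on single libraries: L1MA5 (99.1 and 108 against 53.8 and 47.3, 1.03) was called in 1 of 4 runs, L1MEg (63.6 and 56.2 against 26.8 and 33.7, 0.99) and L1M8 (5.19 and 5.97 against 0.676 and 1.67, 2.25) in none. L1PB4, of the L1P group whose name points to primates, had 3.42 and 7.71 against 0.351 and 0.246 (4.20 ± 1.29, adjusted p = 0.037) and was called in 1 of 4. L1M8 and L1PB4 were named after their values were seen. The count was 19 without 2-cell replicate 2, 25 without 4-cell replicate 1 and 16 without 4-cell replicate 2. Oocyte markers summed to 102 and 115 CPM in 4-cell against 4249 and 4544 CPM in 2-cell DMSO embryos, and cumulus markers, nearly all Gja1, to 342 and 331 CPM against 56.2 and 40.3 CPM, with Fshr and Amh at 0 in the 4-cell libraries. Their part in the result was not tested. Of 35 restriction genes 12 were higher and 10 lower, beside 19.6% and 29.4% of all genes. Uhrf1, which guides maintenance methylation, was lower (3.78 against 140 normalised CPM, −5.21), and Trim28 (126 against 14.8, 3.08) and the HUSH subunit Pphln1 (212 against 30.8, 2.78) were higher.

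The drug comparisons within a stage share the same 2 DMSO libraries, so each is given on its own. With aphidicolin, 0 of 143 older LINE subfamilies were called against DMSO in 2-cell embryos by edgeR (10 by DESeq2, all lower). At an unadjusted p under 0.05 there were 23, beside 136 of all 1016 repeat subfamilies tested. Of all repeats 0% were higher and 0.197% lower, and the median was −0.50 for older LINE subfamilies and −0.43 for all repeats. L1_Mus3 had 240 and 555 normalised CPM with aphidicolin against 731 and 829 with DMSO (−0.97 ± 0.36, adjusted p = 0.279), so its aphidicolin libraries differed from each other by more than the DMSO libraries did. L2a had 383 and 432 against 381 and 429. None of 36 restriction genes was called by edgeR, beside 0.00893% of all genes called higher and 0.192% lower. An unadjusted p under 0.05 was found for 4 of the 36, beside 2292 of all 22391 genes tested.

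In cycloheximide 2-cell embryos 93 of 143 older LINE subfamilies (65.0%) were lower than with DMSO and none was higher, beside 50.6% and 1.67% of all repeats. The median was −1.59 for older LINE subfamilies, −1.42 for all repeats and −0.26 for all genes. All 11 murine-named subfamilies (−2.04), 7 of 9 L1MA (−1.90), 6 of 7 L1MB (−1.88), 16 of 27 L1ME (−1.59), 15 of 22 Lx (−1.23), 7 of 11 CR1 (−2.45) and 3 of 4 L2 (−1.04) subfamilies were lower. The 6 young L1Md_ subfamilies were lower too (−2.65).

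MusHAL1 had 6.34 and 9.21 normalised CPM with cycloheximide against 69.4 and 85.6 with DMSO (−3.32 ± 0.42, adjusted p = 0.000276). L1ME3F had 1.70 and 1.09 against 14.8 and 13.1 (−3.32 ± 0.52, adjusted p = 0.000684), and L1ME3 5.06 and 1.60 against 30.3 and 19.9 (−2.91 ± 0.54, adjusted p = 0.00143). In all 3, both cycloheximide libraries lay far below both DMSO libraries. L1_Mus3 had 132 and 162 against 731 and 829 (−2.41 ± 0.38, adjusted p = 0.000684), and L2a 139 and 118 against 381 and 429 (−1.65 ± 0.29, adjusted p = 0.00118). L1MA4 (−2.52), L1_Mur1 (−2.50), Lx (−2.48), L1_Mus2 (−2.42), L3b (−1.71) and Lx9 (−1.41) fell as well, each also with any library left out. Not all abundant subfamilies fell in this way. L2c had 197 and 182 against 175 and 197 (0.03, adjusted p = 0.935), and L3, at 86.7 and 80.0 against 126 and 124, was not called (−0.58, adjusted p = 0.0713). Lx7, which led in both groups, averaged 660 plain CPM with cycloheximide and 984 with DMSO. It held 12.3% of older LINE counts with cycloheximide and 5.96% with DMSO. Plat_L3 was not called either, since its cycloheximide libraries were at 30.7 and 2.99 against 28.6 and 37.5 (−0.97, adjusted p = 0.259).

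MG132 2-cell embryos had 80 of 143 older LINE subfamilies (55.9%) lower than with DMSO and 1 higher, beside 37.7% and 0.394% of all repeats. The median was −1.39 for older LINE subfamilies, −1.22 for all repeats and −0.07 for all genes. Lower were 9 of 11 murine-named (−1.85), 8 of 9 L1MA (−1.84), 16 of 22 Lx (−1.03), 14 of 27 L1ME, 4 of 11 CR1 (−1.24) and 2 of 4 L2 (−0.82) subfamilies. L1ME3F had 0.405 and 0.381 normalised CPM with MG132 against 14.8 and 13.1 with DMSO (−5.14 ± 0.59, adjusted p = 0.000296). L1_Mus3 had 142 and 111 against 731 and 829 (−2.63 ± 0.38, adjusted p = 0.00068), L1MA7 6.02 and 5.87 against 36.0 and 27.5 (−2.42 ± 0.35, adjusted p = 0.00068) and L2b 59.6 and 61.0 against 165 and 159 (−1.43, adjusted p = 0.00194). These calls held with any library left out, and the groups lay clearly apart. X2_LINE (CR1) had 0 counts with MG132 and 208 with DMSO, at least 54.0-fold lower on a bound of 3 counts over the group (named after its values were seen). Of the 208 counts 165 lay in DMSO replicate 1, without which the bound was 22.8-fold, and it was 36.0-fold and 18.0-fold without MG132 replicates 1 and 2 and 83.9-fold without DMSO replicate 2.

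L2a (199 and 307 against 381 and 429, −0.68, adjusted p = 0.0803), L2c (−0.65, adjusted p = 0.0646) and Plat_L3 (45.1 and 56.6 against 28.6 and 37.5, 0.62, adjusted p = 0.475) were not called with MG132. The subfamily that was higher, L1MEj, had 18.5 and 31.4 against 12.4 and 11.4 (1.07 ± 0.37, adjusted p = 0.0393) and lost its call whichever library was left out. The count was 35 without MG132 replicate 1 and 47 without DMSO replicate 2. With cycloheximide it was 70 to 88 over the 4 such runs.

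Markers of the 2-cell stage moved with both drugs. Summed over 5 markers they were at 35.1 and 54.8 CPM with cycloheximide, 88.9 and 169 CPM with MG132, 1196 and 2899 CPM with aphidicolin, and 25120 and 15238 CPM with DMSO, nearly all of it MERVL-int, the retrovirus expressed at genome activation. MII oocytes had 61.5 to 95.4 CPM. Oocyte markers summed to 6449 and 10544 CPM with cycloheximide and 7607 and 5837 CPM with MG132, against 4249 and 4544 CPM with DMSO. Of these, Bmp15 was lower with cycloheximide, at 1237 and 1052 CPM against 2451 and 2311 CPM with DMSO, while Gdf9, Zp3, Zar1 and Oosp1 were higher. The part of the 2-cell and oocyte markers in the result was not tested. Of 36 restriction genes 13 were higher and 3 lower with cycloheximide, beside 11.0% and 13.0% of all genes, and 8 were higher and 1 lower with MG132, beside 5.10% and 4.68%. Dnmt1 (783 normalised CPM with cycloheximide, 371 with MG132, 35.0 with DMSO) and Mphosph8 (925 with cycloheximide, 497 with MG132, 63.0 with DMSO) were higher with both drugs. Mael was lower with cycloheximide (6.11 against 58.5, −3.26), as was Zc3hav1, which encodes the antiviral protein ZAP (−2.96 with cycloheximide, −2.82 with MG132).

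At the 4-cell stage few older LINE subfamilies passed the test. With aphidicolin edgeR called 0 of 146 (1 by DESeq2), while 0% of all repeats and 0% of all genes were higher or lower. At an unadjusted p under 0.05 there were 16, beside 77 of all 1003 repeat subfamilies tested. The median was −0.31 for older LINE subfamilies and −0.32 for all repeats, and L1_Mus3 had 256 and 305 normalised CPM with aphidicolin against 422 and 341 with DMSO (−0.44, adjusted p = 0.626). None of 36 restriction genes was called by edgeR, and 5 had an unadjusted p under 0.05, beside 1845 of all 22520 genes tested.

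With cycloheximide 2 of 146 were lower than in DMSO 4-cell embryos and none higher, beside 3.39% and 0.997% of all repeats, and the median was 0.20 for older LINE subfamilies, 0.24 for all repeats and 0.44 for all genes. Lx3B, the leading subfamily of DMSO 4-cell embryos, had 137 and 180 normalised CPM with cycloheximide against 497 and 469 with DMSO (−1.61 ± 0.23, adjusted p = 0.00425), and it alone kept its call with any library left out. L1MA5 had 59.2 and 42.7 against 116 and 126 (−1.25 ± 0.26, adjusted p = 0.0295) and lost its call in all 4 such runs. Both subfamilies were also among those that were higher in DMSO 4-cell than in DMSO 2-cell embryos, a comparison that uses the same DMSO 4-cell libraries. L3b had 39.6 and 59.5 against 20.2 and 12.6 (1.59 ± 0.39, adjusted p = 0.06). L1_Mus3 (477 and 322 against 422 and 341, 0.07) and MusHAL1 (0.07) differed by less than their spread. Of 36 restriction genes 4 were higher and 6 lower, beside 8.77% and 10.3% of all genes, among them Mael (94.3 against 8.87 normalised CPM, 3.41) and Pphln1 (42.5 against 248, −2.55).

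With MG132 1 of 146 older LINE subfamilies was higher than in DMSO 4-cell embryos and none lower, beside 0.0997% and 0.698% of all repeats. It was MusHAL1, with 194 and 157 normalised CPM against 59.1 and 42.3 (1.79 ± 0.28, adjusted p = 0.0187), and its call was kept only in the run without MG132 replicate 2. The median was 0.36 for older LINE subfamilies, 0.23 for all repeats and 0.00 for all genes. A log2 fold change above 0 was found for 107 of 146 older LINE subfamilies and 647 of all 1003 repeats. By group it was 21 of 22 Lx, 11 of 11 murine-named, 18 of 27 L1ME, 6 of 11 CR1 and 4 of 7 L1MB subfamilies. No member of these groups passed the test. L1ME3F had 57.1 and 104 against 32.4 and 29.0 (1.39, adjusted p = 0.254) and L1_Mus2 375 and 343 against 197 and 171 (0.96, adjusted p = 0.109). The 2-cell markers summed to 3684 and 10311 CPM with aphidicolin, 9117 and 16699 CPM with cycloheximide and 13859 and 21618 CPM with MG132, against 6116 and 5879 CPM with DMSO. Cumulus markers, mostly Gja1, summed to 313 and 238 CPM with aphidicolin, 12.5 and 11.2 CPM with cycloheximide and 51.7 and 83.4 CPM with MG132, against 342 and 331 CPM with DMSO. Their part in these results was not tested. Of 36 restriction genes 1 (Mael, 67.5 against 8.87) was higher and 4 lower with MG132, beside 3.06% and 4.33% of all genes.

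Whether a drug acted differently at the 2 stages was tested as a difference of log2 fold changes, 4-cell minus 2-cell, in 1 fit of both stages. The cycloheximide effect was called as different for 68 of 148 older LINE subfamilies, 67 of them with the higher value at the 4-cell stage, beside 33.1% of all repeats. The median difference was 1.81 for older LINE subfamilies, 1.77 for all repeats and 1.24 for all genes. MusHAL1 (3.44 ± 0.56, adjusted p = 0.000942), L3b (3.35 ± 0.58, adjusted p = 0.00131), L1_Mus3 (2.53 ± 0.53, adjusted p = 0.00429) and L2a (1.91 ± 0.44, adjusted p = 0.00601) were among them. L2c (0.65, adjusted p = 0.187) and Lx3B (0.49, adjusted p = 0.41) were not called. The lone subfamily with the lower value at the 4-cell stage was L1PB4 (−3.83 ± 1.35, adjusted p = 0.0422).

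The MG132 effect was called as different for 53 of 148, all with the higher value at the 4-cell stage, beside 22.9% of all repeats. The median difference was 1.66 for older LINE subfamilies, 1.44 for all repeats and 0.42 for all genes. L1ME3F differed most among the named subfamilies, at 6.49 ± 0.75 (adjusted p = 0.0001), followed by MusHAL1 at 4.08 ± 0.57 (adjusted p = 0.000481) and L1_Mus3 at 3.15 ± 0.54 (adjusted p = 0.00145). L2a (0.49, adjusted p = 0.432) and L2c (0.97, adjusted p = 0.0788) were not called. By group, 15 of 22 Lx, 10 of 11 murine-named and 6 of 27 L1ME subfamilies differed for MG132, against 11 of 22, 6 of 11 and 14 of 27 for cycloheximide. For aphidicolin edgeR called 0 of 148 and 0% of all repeats. DESeq2 also called 0, and 1 had an unadjusted p under 0.05, beside 30 of all 1050 repeat subfamilies tested. The cycloheximide count was 43 without 2-cell cycloheximide replicate 2, 37 without 2-cell DMSO replicate 2, 30 without 4-cell cycloheximide replicate 1, 36 without 4-cell DMSO replicate 1 and 23 without 4-cell DMSO replicate 2. The MG132 count was 21 without 2-cell MG132 replicate 1, 31 without 2-cell DMSO replicate 2 and 31 without 4-cell DMSO replicate 2.

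**Figure D5:**
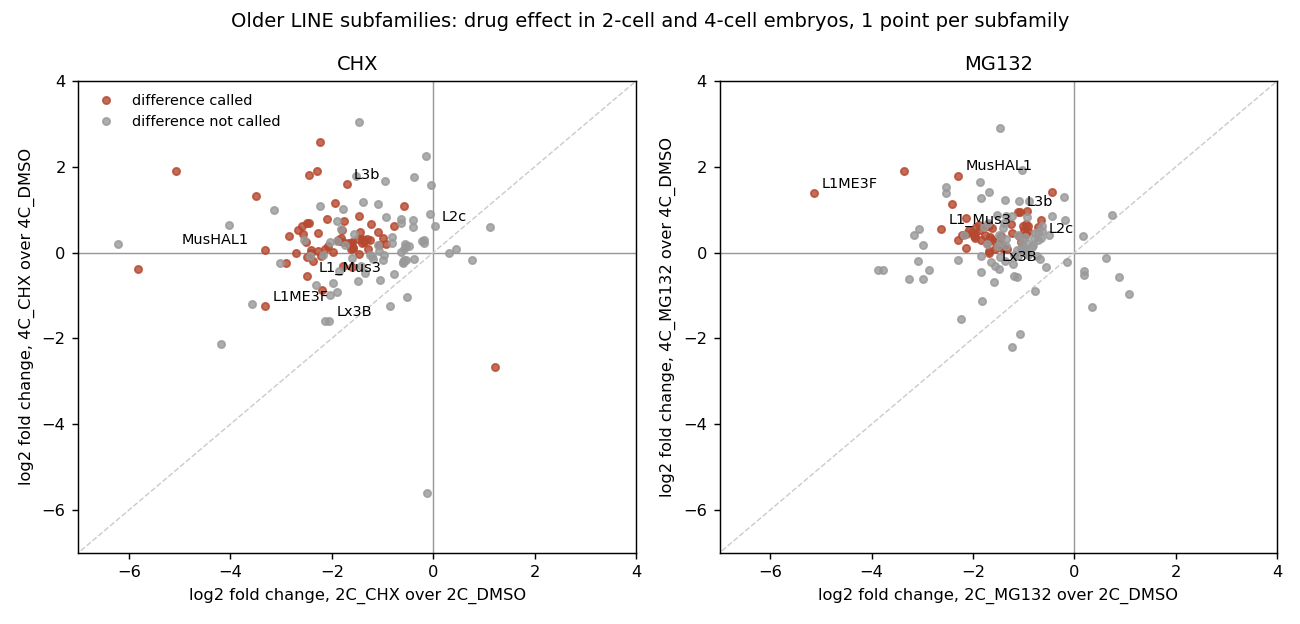
Log2 fold change over DMSO of each of 142 older LINE subfamilies in 2-cell (horizontal) and 4-cell embryos (vertical), for cycloheximide (CHX, left) and MG132 (right). Red points are the 68 and the 53 subfamilies whose effect was called as different between the stages. Most points lie left of 0 on the horizontal axis and above the dashed line of equal effects.

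In ESCs edgeR called no older LINE subfamily with either drug. With cycloheximide edgeR called 0 of 132 (1 by DESeq2), beside 0.583% of all repeats higher and 0.932% lower. Before adjustment, edgeR's p was under 0.05 for 14 older LINE subfamilies, beside 124 of all 858 repeat subfamilies tested. The median was 0.17 for older LINE subfamilies and 0.17 for all repeats. Lx8 had 241 and 297 normalised CPM with cycloheximide against 201 and 255 with DMSO (0.24, adjusted p = 0.508), so the libraries overlapped. With MG132 edgeR called 0 of 132 (3 by DESeq2), with 0% of all repeats in either direction. At an unadjusted p under 0.05 there were 27, beside 189 of all 858 repeat subfamilies tested. The median was 0.25 for older LINE subfamilies and 0.27 for all repeats. L1_Mm had 70.0 and 102 with MG132 against 53.5 and 53.2 with DMSO (0.69 ± 0.17, adjusted p = 0.12), and L2a 228 and 272 against 174 and 193 (0.45 ± 0.13, adjusted p = 0.152). In both the libraries lay apart. All 22 Lx, 11 murine-named and 4 L2 subfamilies had a log2 fold change above 0. So had 117 of 132 older LINE subfamilies and 742 of all 858 repeat subfamilies, so this sign was shared by most repeats. Leaving out either MG132 replicate gave 29 calls.

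Fibroblast markers summed to 578 and 573 CPM with cycloheximide and 603 and 572 CPM with MG132, against 1064 and 1292 CPM in DMSO ESCs. Col1a1, Col1a2 and Col3a1 were lower with both drugs, but other members were not. Dcn was at 4.58 and 5.61 CPM with cycloheximide and 1.31 and 1.44 CPM with MG132, against 2.87 and 3.02 CPM. Thy1 was at 36.7 and 34.4 CPM with cycloheximide and 26.3 and 50.3 CPM with MG132, against 28.9 and 35.6 CPM. The part of these markers was not tested. Of 37 restriction genes 4 were higher and 12 lower with cycloheximide, beside 13.6% and 13.4% of all genes, and 1 was higher and 3 lower with MG132, beside 1.90% and 1.34%. Dnmt3l (381 against 118 normalised CPM, 1.70) and Piwil2, a piRNA-binding protein (1.58), were higher with cycloheximide, and Mael was higher with cycloheximide (1.55) and with MG132 (1.07). Zc3hav1 was lower with cycloheximide (51.8 against 104 normalised CPM) and with MG132 (64.8 against 104, −0.68).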

How the data were processed

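The authors deposited raw counts per gene and per repeat subfamily for each of the 32 libraries, per the file headers. The submitters' processing notes name cutadapt 1.16, STAR and the mm10 genome. Not given in the sources used here are the counter, the repeat annotation, strand and how reads that map more than once were treated. Older LINE subfamilies share sequence, so that treatment can split or drop their reads. No spike-in is stated, so all values are relative to the rest of a library, and no batch is given in the labels.

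Counts were fitted in R 4.3.3 with edgeR 4.0.16 (filterByExpr, minimum count 10 and minimum total 15, TMM normalisation over genes and repeats, robust quasi-likelihood F-tests), as 5 fits within P14 oocytes, MII oocytes, 2-cell embryos, 4-cell embryos and ESCs, 1 over untreated and DMSO groups from MII to 4-cell, and 1 over both embryo stages. Each fit shares 1 estimate of the spread over its groups. P-values were adjusted by Benjamini-Hochberg over repeat subfamilies, and separately over genes, at 0.05. The 14 comparisons and 4 differences between comparisons were repeated with DESeq2 1.42.0 size factors and Wald test, with no filter, with a replicate block, with gene-only library sizes, with adjustment over genes and repeats together, and without each library. The code was tested on simulated data.

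The members, the lists of restriction genes and markers and the tests were chosen with earlier results of these data known. Subfamilies were named by rule: in each comparison the 3 largest increases and decreases among calls without overlap and with at least 10 normalised CPM, and an index set spanning the families. L1ME3F, MusHAL1, Lx3B and Plat_L3, so named in some comparisons, are followed in the others. L1 groups were formed from names. Figures were drawn with matplotlib 3.10.9. Sums over subfamilies were not tested.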

Additional observations from a re-analysis of the deposited data

Results flagged for a closer look

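The effect of cycloheximide differed between the 4-cell and the 2-cell stage for 68 of 148 older LINE subfamilies, by the test of the difference itself. For all repeats the share was 33.1%. The effect of MG132 differed between the same stages for 53 of 148, beside 22.9% of all repeats. The median difference over all genes was 1.24 for cycloheximide and 0.42 for MG132. Both differences were taken against the DMSO libraries of each stage, and the sources used here do not give drug doses or times of exposure, which may differ between the stages.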

How the results depend on the processing

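Of 108 alternatives over the 18 results, 87 gave a count of called older LINE subfamilies within 1.5 times the reported one, and in the 14 comparisons of groups no called subfamily changed sign under another scaling. DESeq2's Wald test gave 9 in MII oocytes by age, 1 in 12-month against DMSO 2-cell embryos, 10 with aphidicolin in 2-cell embryos, 1, 8 and 7 with aphidicolin, cycloheximide and MG132 in 4-cell embryos, 1 and 3 with cycloheximide and MG132 in ESCs, and 96 for the MG132 difference. Without the filter on low counts the numbers were 6 in MII oocytes, 8 and 4 with cycloheximide and MG132 in 4-cell embryos, 2 and 3 in ESCs, and 44 for the cycloheximide difference. Adjusting over genes and repeats together gave 28 for 12-month 2-cell embryos against MII oocytes, 5 with cycloheximide and 5 with MG132 in 4-cell embryos, and 2 with cycloheximide in ESCs. DESeq2 size factors gave 28 for 4-cell against 2-cell embryos. Gene-only library sizes moved the median of all genes by 0.31 in DMSO 2-cell embryos against MII oocytes, where 73 were then higher and 2 lower. These alternative counts are not set beside the share of all repeat subfamilies, and the cause of these shifts was not tested.

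The replicate numbers were not taken to pair the libraries, since the labels do not say so and each group has 2. Deviations of same-numbered libraries correlated at 0.126 to 0.313 among the drug and DMSO groups of 2-cell embryos, −0.35 in growing oocytes and −0.102 in MII oocytes. With a replicate block, 29 subfamilies were called in H3.3K4M oocytes, and in no other comparison did the count move by over 1.5 times. A crossed pairing, added after seeing the data, gave 71 in growing oocytes and 0 in MII oocytes.

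Leaving out 1 library at a time gave 20 to 41 calls in H3.3K4M oocytes, 0 to 10 in MII oocytes by age, 32 to 46 and 10 to 24 in young and 12-month 2-cell embryos against MII oocytes, 16 to 39 in 4-cell against 2-cell embryos, 70 to 88 and 35 to 71 with cycloheximide and MG132 in 2-cell embryos, 1 to 1 and 0 to 1 with the same drugs in 4-cell embryos, 0 to 0 and 0 to 29 in ESCs, 23 to 61 and 21 to 56 for the cycloheximide and MG132 differences, and 0 in the remaining results. A lone library left in a group was taken to vary like the other groups of its fit.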
